A study of Mus musculus with 18 samples.

Results

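The 10 genes described here mark Kupffer cells and inflammatory myeloid cells in mouse liver, and were taken by symbol from a table of 37303 genes, in which each symbol was found once. Clec4f, Timd4, Vsig4, Cd5l and Marco mark Kupffer cells, Cd68, Csf1r and Lyz2 mark macrophages and monocytes in general, and S100a8 and S100a9 mark neutrophils and inflammatory monocytes. Marco, a scavenger receptor of tissue macrophages, rose in the liver of both Gcn2-/- and Atf4-/- mice given asparaginase (ASNase), and was the only one of the 10 to do so in both strains. It stood at 117.5 FPKM in Gcn2-/- ASNase liver and at 67.3 FPKM in Atf4-/- ASNase liver, against 3.45 to 9.22 FPKM in the other 4 groups. Clec4f, in contrast, had its 2 lowest values, 15.9 and 30.1 FPKM, in those same 2 groups.

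Kupffer cells are the resident macrophages of the liver. They sit in the sinusoids, take up bacteria, worn red cells and debris from portal blood, and are seeded before birth and kept by self-renewal, with CSF1 receptor signalling needed for their survival. After damage or inflammation, monocytes and neutrophils enter the liver from blood, and monocytes that replace lost Kupffer cells gain genes such as Clec4f before Timd4. FPKM is the number of sequenced fragments scaled to the length of the transcript and to the size of the library, so that levels can be compared between genes as well as between groups.

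The samples were 18 mouse livers in 6 groups of 3: wild type (WT) mice, mice lacking Gcn2 and mice lacking Atf4, each given ASNase or phosphate buffered saline (PBS). ASNase is an enzyme drug that removes asparagine and glutamine from blood, GCN2 is a kinase that senses uncharged tRNA, and ATF4 is the transcription factor made in its wake. Both deletions are homozygous and present in every cell, so that blood cells and Kupffer cells lack the gene as well as hepatocytes, and the strain background is C57BL/6J in all groups. Mice received 8 daily intraperitoneal doses of 3 IU ASNase per g body weight or the same volume of PBS, and livers were taken 7.5 h after injection. Ages were 8 to 16 weeks by the sample labels and up to 12 weeks by the growth protocol. Males numbered 1 of 3 in WT PBS, Gcn2-/- PBS and Gcn2-/- ASNase and 2 of 3 in WT ASNase, Atf4-/- PBS and Atf4-/- ASNase, so the sex of the mice was not balanced between WT groups. It was also uneven between Gcn2-/- ASNase and WT ASNase, between Atf4-/- PBS and WT PBS, and between Gcn2-/- and Atf4-/- mice.

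Each gene had 1 FPKM value per group with a lower and an upper bound, made by Cuffdiff out of 3 pooled libraries. The values of single mice were not used here, so that values have no SD, differences have no replicate check and p-values were not computed. The reads behind each value are unknown from the table, and the precision is that of the bounds: the median half-width of an interval was 51.3% to 54.2% of the value in the 6 groups, over genes above 3 FPKM. A gene was called in a comparison when its FPKM was over 3 in either group, its difference in log2(FPKM + 0.1) was over 1.5, and its intervals did not overlap. The words rose and fell are kept for genes that passed this rule. Differences are on the log2(FPKM + 0.1) scale, which understates the change of low genes, and folds are plain ratios of FPKM.

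Genes above 1 FPKM numbered 11114 to 11608 per group, and all values of the 10 genes had the status OK. The transcript of Gcn2, listed as Eif2ak4, stood at 2.19 to 3.14 FPKM in all groups. The deletion removes a single exon, so the level of the whole gene does not check the labels. Atf4 stood at 32.3 and 29.3 FPKM in the Atf4-/- groups against 50.4 to 68.1 FPKM in the other groups. The interval of Atf4-/- PBS (19.1 to 45.5) overlapped that of WT PBS (29.7 to 71.1). The study reports from read density plots that Atf4 is absent in Atf4-/- mice. Which part of the gene the reads behind these FPKM values cover was not tested. Markers of other cells were not even between the groups. The summed FPKM of 6 lung epithelial genes was 135 in WT PBS and 1.19 to 3.19 elsewhere, and that of 6 skeletal muscle genes was 601 and 864 in WT mice, 45.4 and 95.6 in Atf4-/- mice, and 0.454 and 0.571 in Gcn2-/- mice, PBS first.

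The promoters of Marco, Vsig4, Cd5l and S100a9 are shown because Marco rose, Cd5l and S100a9 fell, and Vsig4 holds 2 copies of the motif that Marco and Cd5l hold. Each line gives the 250 bases before the RefSeq start site in GRCm38.p6, from 5′ to 3′ on the strand of the gene, and capitals mark the core GAGGAA bound by PU.1, the factor that specifies myeloid cells, or its reverse complement TTCCTC. Marco is taken from chr1:120505025-120505274, Vsig4 from chrX:96293439-96293688 and S100a9 from chr3:90695722-90695971, all on the minus strand, and Cd5l from chr3:87357631-87357880 on the plus strand.
Marco promoter: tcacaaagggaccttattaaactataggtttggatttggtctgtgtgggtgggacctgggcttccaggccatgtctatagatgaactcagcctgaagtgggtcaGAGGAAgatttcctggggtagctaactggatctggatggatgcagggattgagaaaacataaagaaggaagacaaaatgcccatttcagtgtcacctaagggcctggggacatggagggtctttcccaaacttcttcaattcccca
Vsig4 promoter: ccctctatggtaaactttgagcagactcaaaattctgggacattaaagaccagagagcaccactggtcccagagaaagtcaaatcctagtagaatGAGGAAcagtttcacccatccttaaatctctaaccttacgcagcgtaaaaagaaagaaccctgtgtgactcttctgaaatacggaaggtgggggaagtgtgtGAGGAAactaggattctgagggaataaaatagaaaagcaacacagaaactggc
Cd5l promoter: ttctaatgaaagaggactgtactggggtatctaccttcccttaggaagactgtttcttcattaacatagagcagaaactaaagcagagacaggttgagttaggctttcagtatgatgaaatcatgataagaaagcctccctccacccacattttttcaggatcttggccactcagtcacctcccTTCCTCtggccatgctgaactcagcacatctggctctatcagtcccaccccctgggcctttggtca
S100a9 promoter: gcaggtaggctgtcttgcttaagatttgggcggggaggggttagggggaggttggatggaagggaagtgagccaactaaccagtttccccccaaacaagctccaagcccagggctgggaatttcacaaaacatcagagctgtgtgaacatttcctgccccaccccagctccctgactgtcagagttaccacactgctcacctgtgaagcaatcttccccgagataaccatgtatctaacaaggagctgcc

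The PU.1 core stood in 5 of the 9 member promoters that the RefSeq set holds, and in 23.3% of all 32851 promoters of the same length, with both strands searched. It lay 146 bases before the start of Marco, 155 and 53 bases before Vsig4 and 66 bases before Cd5l on the opposite strand. Cd68 and S100a8 held it as well, at 225 bases and at 170 and 36 bases before the start, while the promoters of S100a9, Lyz2, Clec4f and Timd4 did not hold these letters in this window. The antioxidant response element core TGACNNNGC was found in Clec4f alone, on the reverse strand 61 bases before the start, against 10.2% of all promoters. The C/EBP-ATF response element TGATGCAA, the type of site through which ATF4 acts, was found in 0 of 9 member promoters and 0.791% of all promoters, and the C/EBP palindrome TTGCGCAA in 0 of 9 and 0.164%. The matches in member promoters do not overlap each other and describe letters only, without any measure of binding.

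**Figure D1:**
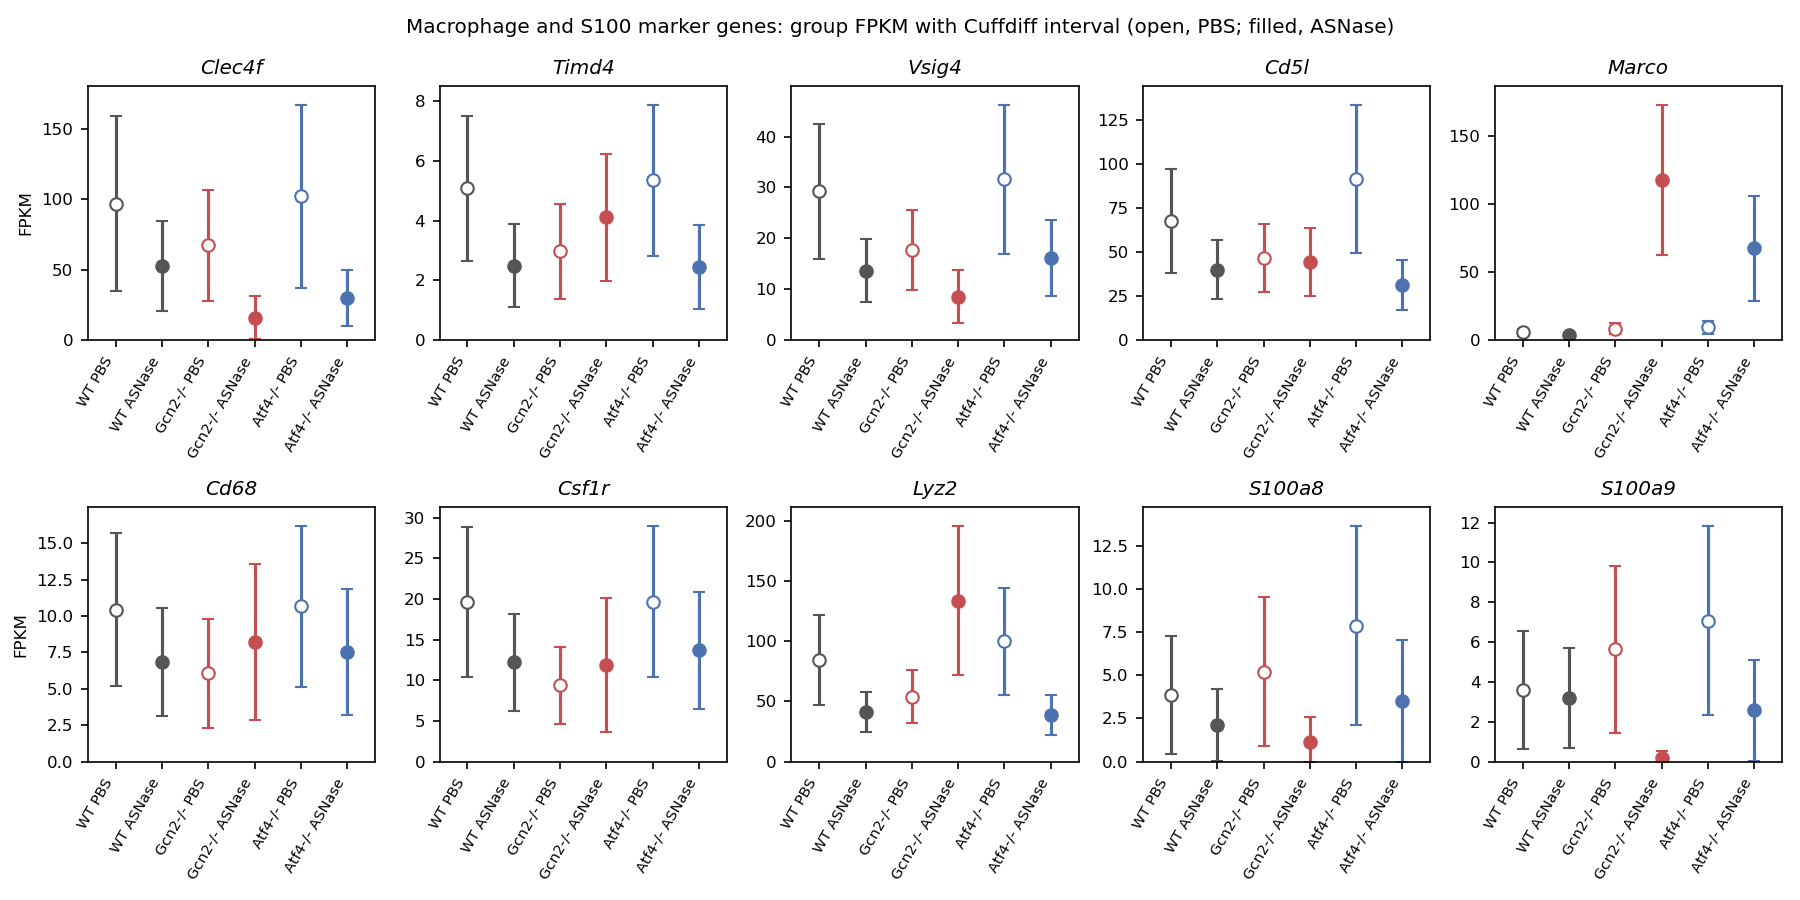
FPKM of the 10 marker genes (y axis, linear, 1 scale per gene) in the 6 groups (x axis), with open circles for PBS, filled circles for ASNase and bars for the Cuffdiff interval. Marco stands at 117.5 and 67.3 FPKM in the Gcn2-/- and Atf4-/- ASNase groups and below 10 FPKM elsewhere, and S100a9 is lowest in Gcn2-/- ASNase, at 0.171 FPKM.

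Marco (ENSMUSG00000026390, chromosome 1, 120474538 to 120505024 in mm10) binds bacteria and unopsonised particles. Its FPKM was 5.69 (interval 2.93 to 8.44) under PBS and 3.45 (1.56 to 5.35) under ASNase in WT mice, 8.32 (4.40 to 12.2) and 117.5 (62.4 to 172.7) in Gcn2-/- mice, and 9.22 (4.60 to 13.8) and 67.3 (28.8 to 105.7) in Atf4-/- mice. The 2 mutant ASNase groups overlapped each other and lay wholly above the other 4. Marco was thus 14.1-fold higher with ASNase than with PBS in Gcn2-/- mice, a log2 difference of 3.80, and 7.30-fold higher in Atf4-/- mice, a log2 difference of 2.85. In WT mice the log2 difference was -0.70 with overlapping intervals. Of all 15 pairs of groups, 8 had separate intervals for Marco, the most of any of the 10 genes, and Marco was the only one of the 10 with a gap between neighbours in the order of its levels. Alveolar macrophages of the lung also carry Marco. The lung epithelial genes summed to 135 FPKM in WT PBS and to 1.78 and 3.19 FPKM in the 2 groups where Marco was high. The part of lung tissue in the Marco values, that of WT PBS included, was not tested.

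Clec4f (ENSMUSG00000014542, chromosome 6, 83644542 to 83656187) is a lectin found in mice almost solely on Kupffer cells. Its FPKM was 96.8 (interval 34.6 to 159.0) under PBS and 52.4 (20.6 to 84.2) under ASNase in WT mice, 67.3 (27.6 to 106.9) and 15.9 (0.574 to 31.2) in Gcn2-/- mice, and 102.1 (37.0 to 167.2) and 30.1 (10.1 to 50.1) in Atf4-/- mice. In each strain the ASNase value was the lower one, and in each strain the intervals overlapped. The log2 differences were -0.88 in WT, -2.08 in Gcn2-/- and -1.76 in Atf4-/- mice, so the fold passed the limit in both mutants and the interval condition failed in both. Gcn2-/- ASNase lay below WT PBS and Atf4-/- PBS with separate intervals, and the other 13 pairs of groups overlapped. Since liver pieces were sequenced whole, fewer Kupffer cells and less Clec4f RNA per Kupffer cell cannot be told apart, and the same holds for every gene here.

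Vsig4 (ENSMUSG00000044206, chromosome X, 96247203 to 96293438) is a complement receptor of resident macrophages through which Kupffer cells clear bacteria. It stood at 29.2 FPKM (15.9 to 42.6) under PBS and 13.7 (7.55 to 19.8) under ASNase in WT mice, 17.7 (9.79 to 25.6) and 8.56 (3.28 to 13.8) in Gcn2-/- mice, and 31.6 (16.9 to 46.2) and 16.1 (8.59 to 23.5) in Atf4-/- mice. The ASNase value was again the lower in each strain, and by a like amount: the log2 differences were -1.09, -1.04 and -0.97 in WT, Gcn2-/- and Atf4-/- mice, none of which was called. The response of Gcn2-/- mice differed from that of WT mice by 0.05 on the log2 scale, within a combined error of 1.58.

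Cd5l (ENSMUSG00000015854, chromosome 3, 87357881 to 87371073) encodes AIM, a protein that Kupffer cells secrete into blood. Its FPKM was 67.5 (38.0 to 97.0) under PBS and 40.1 (23.5 to 56.7) under ASNase in WT mice, 46.6 (27.1 to 66.1) and 44.4 (24.8 to 63.9) in Gcn2-/- mice, and 91.6 (49.6 to 133.7) and 31.3 (16.9 to 45.7) in Atf4-/- mice. Cd5l fell with ASNase in Atf4-/- mice by 1.55 on the log2 scale, just past the limit, and this was its only separate pair of groups among 15. In Gcn2-/- mice its 2 values lay within 0.07 on the log2 scale of each other. The difference between these 2 responses was -1.48, under the limit of 1.5, so the strains were not called different.

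Timd4 (ENSMUSG00000055546, chromosome 11, 46810800 to 46844332) is a phosphatidylserine receptor that marks Kupffer cells of embryonic origin. It stood at 5.08 FPKM under PBS and 2.49 under ASNase in WT mice, 2.97 and 4.12 in Gcn2-/- mice, and 5.35 and 2.44 in Atf4-/- mice. It was the lowest of the 5 Kupffer cell genes in each of the 6 groups, and all 15 pairs of groups overlapped.

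The general macrophage genes Cd68 and Csf1r held the narrowest range of levels. Cd68 (ENSMUSG00000018774, chromosome 11, 69664213 to 69666153), a lysosomal glycoprotein of macrophages, stood at 10.4 FPKM under PBS and 6.84 under ASNase in WT mice, 6.07 and 8.21 in Gcn2-/- mice, and 10.7 and 7.54 in Atf4-/- mice. Csf1r (ENSMUSG00000024621, chromosome 18), the receptor for CSF1 and IL-34, stood at 19.6, 12.2, 9.39, 11.8, 19.7 and 13.7 FPKM in the same order of groups. The highest value was 1.76 times the lowest for Cd68 and 2.09 times for Csf1r, with no separate pair among 15 for either gene. For both genes the ASNase value was below the PBS value in WT and Atf4-/- mice and above it in Gcn2-/- mice, within the overlap of the intervals. The span listed for Csf1r in the table runs over its neighbour Hmgxb3 as well, so that reads of that gene may stand in its value.

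Lyz2 (ENSMUSG00000069516, chromosome 10, 117277331 to 117282321) encodes the lysozyme of myeloid cells. Its FPKM was 84.8 (interval 47.4 to 122.2) under PBS and 41.0 (24.3 to 57.7) under ASNase in WT mice, 54.1 (32.0 to 76.2) and 133.8 (71.8 to 195.9) in Gcn2-/- mice, and 100.2 (55.5 to 144.8) and 38.5 (21.7 to 55.2) in Atf4-/- mice. Gcn2-/- ASNase had the highest value, above WT ASNase and Atf4-/- ASNase with separate intervals. With ASNase against PBS, the log2 difference was 1.31 with overlapping intervals in Gcn2-/- mice and -1.38 with separate intervals in Atf4-/- mice, which is short of the limit on the fold. Lyz1, a near-identical copy, was listed at 0.049 to 0.700 FPKM, and reads shared between both copies may have been split by the counting.

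S100a8 and S100a9 (ENSMUSG00000056054 and ENSMUSG00000056071, both on chromosome 3) encode the 2 chains of calprotectin, which neutrophils and inflammatory monocytes hold in bulk. S100a9 stood at 3.58 FPKM (0.604 to 6.56) under PBS and 3.19 (0.660 to 5.72) under ASNase in WT mice, 5.63 (1.44 to 9.83) and 0.171 (0 to 0.518) in Gcn2-/- mice, and 7.07 (2.33 to 11.8) and 2.57 (0.041 to 5.10) in Atf4-/- mice. S100a8 stood at 3.87, 2.13, 5.20, 1.15, 7.89 and 3.51 FPKM in the same order, with intervals that reached down to 0 in both mutant ASNase groups. S100a9 fell with ASNase in Gcn2-/- mice by 4.41 on the log2 scale, and its interval there lay below those of WT PBS, WT ASNase, Gcn2-/- PBS and Atf4-/- PBS. The interval of the lowest value begins at 0, so the size of this change is poorly fixed. For S100a8 the log2 difference in Gcn2-/- mice was -2.08 with overlapping intervals, and no pair among its 15 was separate. The ratio of S100a8 to S100a9 was 0.667 to 1.36 in 5 groups and 6.75 in Gcn2-/- ASNase.

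The comparison of ASNase with PBS asks what amino acid depletion did in each strain. In WT mice 0 of the 10 genes were called, where 0.881% of 9084 genes tested were. All 10 values were lower with ASNase, with a median log2 difference of -0.79 and a range from -1.09 for Vsig4 to -0.16 for S100a9, while 51% of all genes tested were lower and their median was -0.01. The lung genes stood at a sum of 135 FPKM in WT PBS and 2.61 in WT ASNase, and the median log2 difference was -1.51 for 4 B cell genes and -0.90 for 4 T cell genes. All of these B and T cell genes were below 3 FPKM in both groups and could not be tested. The part of lung, B and T cells in the shift of the 10 genes was not tested. The 10 genes come from overlapping cell populations and are not independent of each other.

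In Gcn2-/- mice 2 of the 10 genes were called, Marco as higher and S100a9 as lower, where 3.69% of 9218 genes tested were called. S100a9 was below 3 FPKM under ASNase and could be tested there only through its PBS value. The directions were split, since 5 genes were higher and 5 lower, with a median of 0.13 against 0.02 over all genes tested. Marco, Lyz2, Timd4, Cd68 and Csf1r had the higher values, and Clec4f, Vsig4, Cd5l, S100a8 and S100a9 the lower ones.

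In Atf4-/- mice 2 of the 10 genes were called, Marco as higher and Cd5l as lower, where 7.37% of 9485 genes tested were called. Here 9 of the 10 genes were lower with ASNase, Marco being the exception, with a median log2 difference of -1.12 against 0.08 over all genes tested and with 46.2% of those genes lower. Lists of other liver cells had medians below 0 here too, at -0.65 for 5 genes of sinusoidal endothelium, -0.70 for 4 stellate cell genes and -0.67 for the 5 hepatocyte genes with the status OK in both groups, and their part in the shift was not tested.

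**Figure D2:**
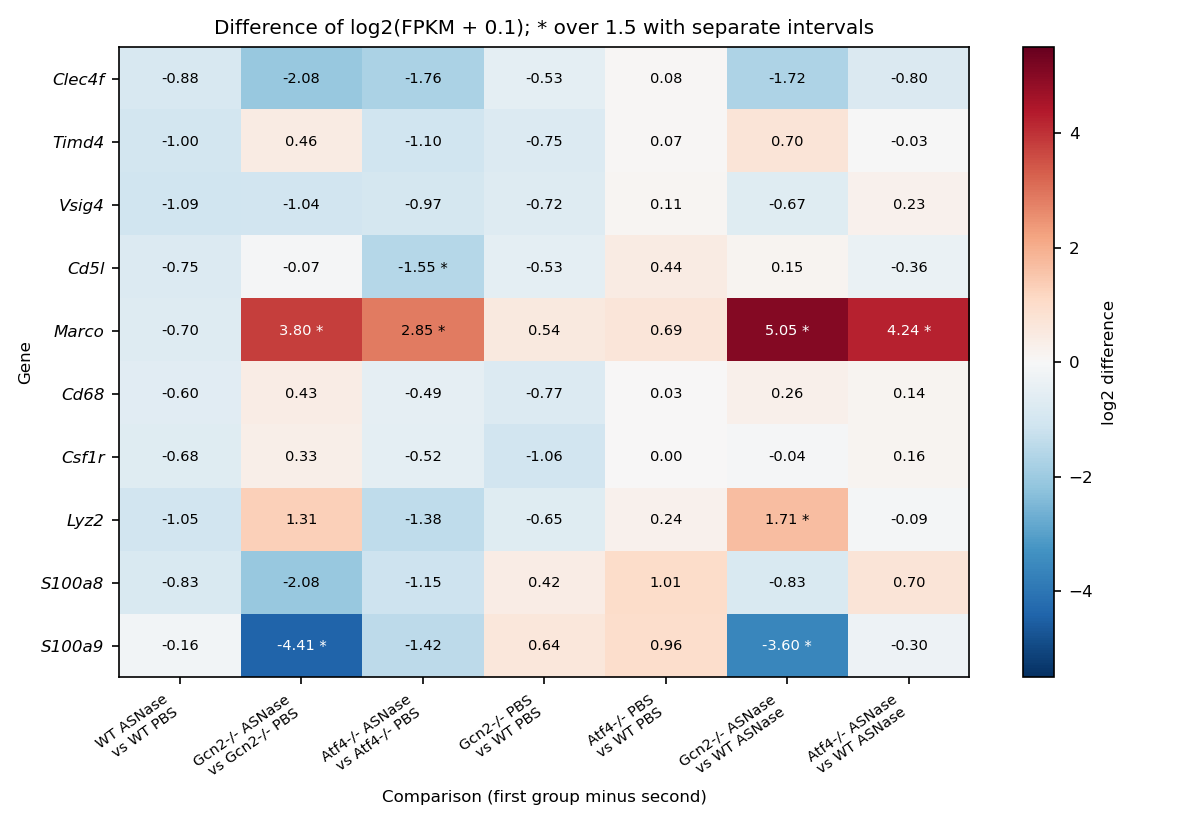
Difference in log2(FPKM + 0.1) of the 10 genes (rows) in 7 comparisons (columns), first group minus second, as colour and number, with a star where the gene was called. Marco carries 4 of the 8 stars, and the column for WT ASNase against WT PBS holds negative values only and no star.

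The ASNase responses of the strains were then set against each other, since a call in one strain and not in another does not show that they differ. A difference of responses was called when its size passed both 1.5 on the log2 scale and a combined error, the square root of the sum of the squared log2 half-widths of the 4 intervals. Between Gcn2-/- and WT mice this held for 3 of the 10 genes, and for 4.48% of 9523 genes tested: Marco at 4.51 (combined error 1.54), Lyz2 at 2.35 (1.33) and S100a9 at -4.24 (2.88). Between Atf4-/- and WT mice it held for Marco alone, at 3.56 (1.67), where 6.56% of 9698 genes passed. Between Atf4-/- and Gcn2-/- mice it held for Lyz2 alone, at -2.68 (1.36), where 3.65% of 9684 genes passed. The Marco responses of the 2 mutants differed by -0.95, within the combined error of 1.60. For Timd4 the difference between the mutants was -1.56, past the limit but within its error of 1.63.

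The comparison of PBS groups asks what each deletion did without the drug, and both use the same WT PBS group, the one with the lung genes. In Gcn2-/- PBS against WT PBS 0 of 10 genes were called, where 1.04% of 8920 genes were. The values of 7 genes were lower and those of Marco, S100a8 and S100a9 higher, with a median log2 difference of -0.59 against 0.06 over all genes tested, of which 39.9% were lower. The 5 genes of sinusoidal endothelium were all lower as well, with a median of -0.65, and their part in the shift was not tested. In Atf4-/- PBS against WT PBS 0 of 10 were called, where 1.12% of 9039 genes were. All 10 values were higher, with a median of 0.18 against 0.00 and with 50.4% of all genes tested higher. Csf1r was level between these groups, at a log2 difference of 0.0008, and turned to -0.02 with median-ratio scaling, under which 9 of the 10 were higher.

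The strains under ASNase were compared as well, both against the same WT ASNase group. In Gcn2-/- ASNase 3 of the 9 genes that could be tested were called, where 4.41% of 9423 genes were. Marco was 34.0-fold higher (log2 difference 5.05), Lyz2 was 3.27-fold higher (1.71), and S100a9 was lower by 3.60 on the log2 scale. S100a9 stood at 0.171 FPKM in Gcn2-/- ASNase and could be tested only through its WT ASNase value of 3.19 FPKM, close to the limit of 3. In Atf4-/- ASNase 1 of 9 was called, where 8.25% of 9577 genes were: Marco, 19.5-fold higher (4.24). S100a8 in the first comparison and Timd4 in the second were below 3 FPKM in both groups and were not tested.

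Since Cd68 held the narrowest range of levels, the macrophage genes were set against it within each group. Cd68 was thus picked from these same values, and its intervals reach 50.2% to 65.4% of the value to each side. The ratios carry no error and largely restate the FPKM differences. They are not a correction for the number of macrophages. Marco to Cd68 stood at 0.544 and 0.505 in WT mice under PBS and ASNase, at 1.37 and 14.3 in Gcn2-/- mice and at 0.864 and 8.92 in Atf4-/- mice. The ratio of Clec4f to Cd68 ran the other way, with 7.66 to 11.1 in the WT and PBS groups and 1.93 and 3.99 in the mutant ASNase groups. Marco to Clec4f therefore stood at 0.0587 to 0.124 in the WT and PBS groups, at 7.41 in Gcn2-/- ASNase and at 2.24 in Atf4-/- ASNase. Lyz2 to Cd68 was highest in Gcn2-/- ASNase, at 16.3, and lowest in Atf4-/- ASNase, at 5.10. The ratios of Cd5l to Cd68 spanned 4.15 to 8.59 over the 6 groups.

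**Figure D3:**
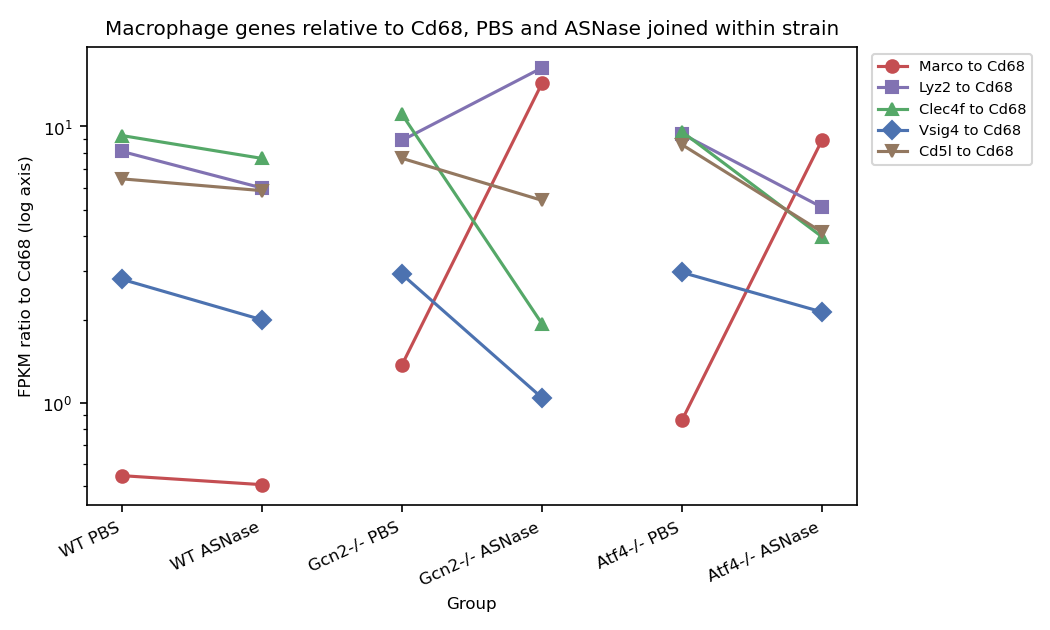
FPKM of Marco, Lyz2, Clec4f, Vsig4 and Cd5l divided by that of Cd68 in the same group (y axis, log scale) in the 6 groups (x axis), with PBS and ASNase of a strain joined by a line. The ratio for Marco goes from 1.37 to 14.3 in Gcn2-/- mice and from 0.864 to 8.92 in Atf4-/- mice, and that for Clec4f goes down in all 3 strains.

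Other genes of the same cells gave a mixed picture. Of 13 further Kupffer cell genes, 0 were called in WT mice, 2 were higher in Gcn2-/- mice, and 1 was higher and 2 were lower in Atf4-/- mice with ASNase against PBS. The number that could be tested was 12 for WT, 13 for Gcn2-/- and 13 for Atf4-/- mice, and the shares called among all genes tested in these comparisons were 0.881%, 3.69% and 7.37%. Hmox1, the heme oxygenase with which Kupffer cells degrade heme, rose in both mutants, from 13.0 to 40.3 FPKM in Gcn2-/- and from 14.7 to 55.3 FPKM in Atf4-/- mice, against 14.5 and 14.6 FPKM in WT. Spic, the transcription factor of macrophages that recycle iron, which was picked after its values were seen, rose in Gcn2-/- mice from 1.70 to 8.72 FPKM. The PBS value of Spic was below 3 FPKM, so it could be tested there only through its ASNase value. Folr2, a folate receptor of resident macrophages, fell in Atf4-/- mice from 18.3 to 3.73 FPKM, and Slc40a1, the iron exporter ferroportin, fell there from 70.7 to 24.2 FPKM. Against WT ASNase at 20.2 FPKM, Id3, a transcription regulator that Kupffer cells depend on, was higher in Gcn2-/- ASNase, at 77.0 FPKM. With ASNase the 13 genes had a median log2 difference of -0.60 for WT, 0.22 for Gcn2-/- and -0.39 for Atf4-/- mice, beside -0.01, 0.02 and 0.08 over all genes tested. Liver pieces were sequenced whole, and the part of hepatocytes and other cells in the values of these 13 genes, Hmox1 and Slc40a1 among them, was not tested.

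Of 16 further macrophage genes, 0 were called in WT mice, 1 higher and 1 lower in Gcn2-/- mice, and 1 lower in Atf4-/- mice with ASNase against PBS, out of 13, 13 and 14 that could be tested and beside the shares of 0.881%, 3.69% and 7.37% over all genes. Cd74, the invariant chain of MHC class II that B cells and dendritic cells carry too, fell in both mutants, from 54.0 to 15.6 FPKM in Gcn2-/- and from 86.6 to 11.0 FPKM in Atf4-/- mice, and stood at 108 and 50.4 FPKM in WT PBS and WT ASNase. The summed FPKM of 4 B cell genes was 3.28 and 0.898 in WT mice, 2.32 and 0.533 in Gcn2-/- mice, and 2.86 and 0.268 in Atf4-/- mice, PBS first, and its part in Cd74 was not tested. Cybb, the oxidase subunit of the phagocyte burst, rose in Gcn2-/- mice from 2.56 to 9.68 FPKM, and could be tested there only through its ASNase value. Against WT ASNase, Gcn2-/- ASNase was higher for Cybb, for Fcer1g, the signalling chain of Fc receptors (48.3 against 11.8 FPKM), and for Mpeg1, the pore-forming perforin-2 of macrophages (48.9 against 12.9 FPKM). With ASNase the 16 genes had a median log2 difference of -0.57 in WT, 0.31 in Gcn2-/- and -0.59 in Atf4-/- mice.

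Of 18 genes of monocytes and activated macrophages, 0 were called in WT, 4 were higher in Gcn2-/- and 1 was higher in Atf4-/- mice with ASNase against PBS, and none was called lower. Only 6, 10 and 9 of the 18 could be tested in these comparisons, where 0.881%, 3.69% and 7.37% of all genes tested were called. The 4 genes called in Gcn2-/- mice were below 3 FPKM under PBS and could be tested only through their ASNase values. Genes of the list that were low in both groups could not be called, so the filter shapes these counts. Cd14, the lipopolysaccharide co-receptor, rose in both mutants, from 2.07 to 57.1 FPKM in Gcn2-/- and from 3.05 to 82.6 FPKM in Atf4-/- mice, and stood at 2.52 and 1.59 FPKM in WT PBS and WT ASNase. Hepatocytes can express Cd14 as well. Ccl2, the chemokine that draws monocytes, rose in Gcn2-/- mice from 1.18 to 14.0 FPKM and Il1b, the cytokine interleukin-1β, from 2.29 to 11.9 FPKM, and Itgam, an integrin chain of myeloid cells picked after its values were seen, from 0.457 to 5.83 FPKM. In Atf4-/- mice Itgam stood at 0.916 FPKM under PBS and 4.10 FPKM under ASNase, with overlapping intervals. It was called higher in Atf4-/- ASNase than in WT ASNase, at 4.10 against 0.362 FPKM, and could be tested only through the Atf4-/- value. Plac8, a protein abundant in monocytes, was higher in Gcn2-/- than in WT ASNase, at 28.5 against 8.39 FPKM. Genes that define the blood monocyte, picked after their values were seen, stood low in the mutants under ASNase: Ccr2 was at 0.045 and 0.057 FPKM and Ly6c2 at 0.063 and 0.035 FPKM in Gcn2-/- and Atf4-/- ASNase, below the 0.353 and 0.333 FPKM of WT ASNase and too low to be called. Arg1 and Fn1 of this list, picked in the same way, at 869 to 1618 FPKM and 139 to 412 FPKM, are abundant in hepatocytes. The median log2 difference of the 18 genes with ASNase was -0.50, 0.76 and 0.24 in WT, Gcn2-/- and Atf4-/- mice. Between the PBS groups 0 genes of this list and of the lists of further Kupffer cell and macrophage genes were called. Those tested numbered 6, 12 and 13 in Gcn2-/- PBS and 8, 12 and 14 in Atf4-/- PBS, each against WT PBS. Only 1.04% and 1.12% of all genes tested were called in these comparisons.

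Of 14 neutrophil genes only 2 could be tested in any comparison. Fpr1, a formyl peptide receptor, rose in Gcn2-/- mice from 2.03 to 7.13 FPKM with ASNase, where 3.69% of all genes tested were called, and neither was called with ASNase in WT or Atf4-/- mice. Fpr1 was below 3 FPKM in Gcn2-/- PBS and could be tested there only through its ASNase value. Ly6g and Camp of this list, picked after their values were seen, were at or near 0: Ly6g was listed at 0 in 5 of 6 groups and at 0.105 FPKM in Gcn2-/- PBS, and Camp, a granule peptide gene, stood at 0.024 to 0.179 FPKM. Csf3r of the list, picked in the same way, stood higher, at 0.843 FPKM in Gcn2-/- PBS and 2.43 FPKM in Gcn2-/- ASNase, too low to be tested. In that comparison 5 of the 14 genes were higher with ASNase and 9 were lower. The median log2 difference of the 14 genes with ASNase was -0.07 for WT, -0.53 for Gcn2-/- and -0.47 for Atf4-/- mice. Lcn2, lipocalin 2, which hepatocytes secrete in the acute phase, reached 9990 FPKM in Gcn2-/- ASNase and 8691 FPKM in Atf4-/- ASNase, with intervals that began at 0 in both. Lcn2 was called higher in Atf4-/- PBS than in WT PBS, at 150.8 against 10.1 FPKM. In Gcn2-/- PBS it stood higher still, at 472 FPKM. It was not called there, because its wide interval (13.4 to 930.6) overlapped that of WT PBS (4.78 to 15.5). Of the 2 ligands of the CSF1 receptor, Il34 stood at 1.79 to 2.49 FPKM in the 6 groups, too low to be tested in any comparison. Csf1 was called in no comparison, where 0.881% to 8.25% of all genes tested were called. It stood at 3.11 to 4.93 FPKM in 5 groups and 8.40 FPKM in Gcn2-/- ASNase. Further cell types were followed by their own genes. The summed FPKM of 5 erythroid genes was 217 and 126 in WT mice, 125 and 10.9 in Gcn2-/- mice and 186 and 6.68 in Atf4-/- mice, PBS first, and the globin genes Hba-a1 and Hbb-b1 were called lower with ASNase in both mutants. That of 4 T cell genes was 0.552 to 3.01 in the 6 groups, that of 5 genes of sinusoidal endothelium 62.2 to 145, that of 4 stellate cell genes 81.5 to 135, and that of the 5 hepatocyte genes with the status OK in all groups 4727 to 11105. The part of these cells in the values of the 10 genes was not tested.

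**Figure D4:**
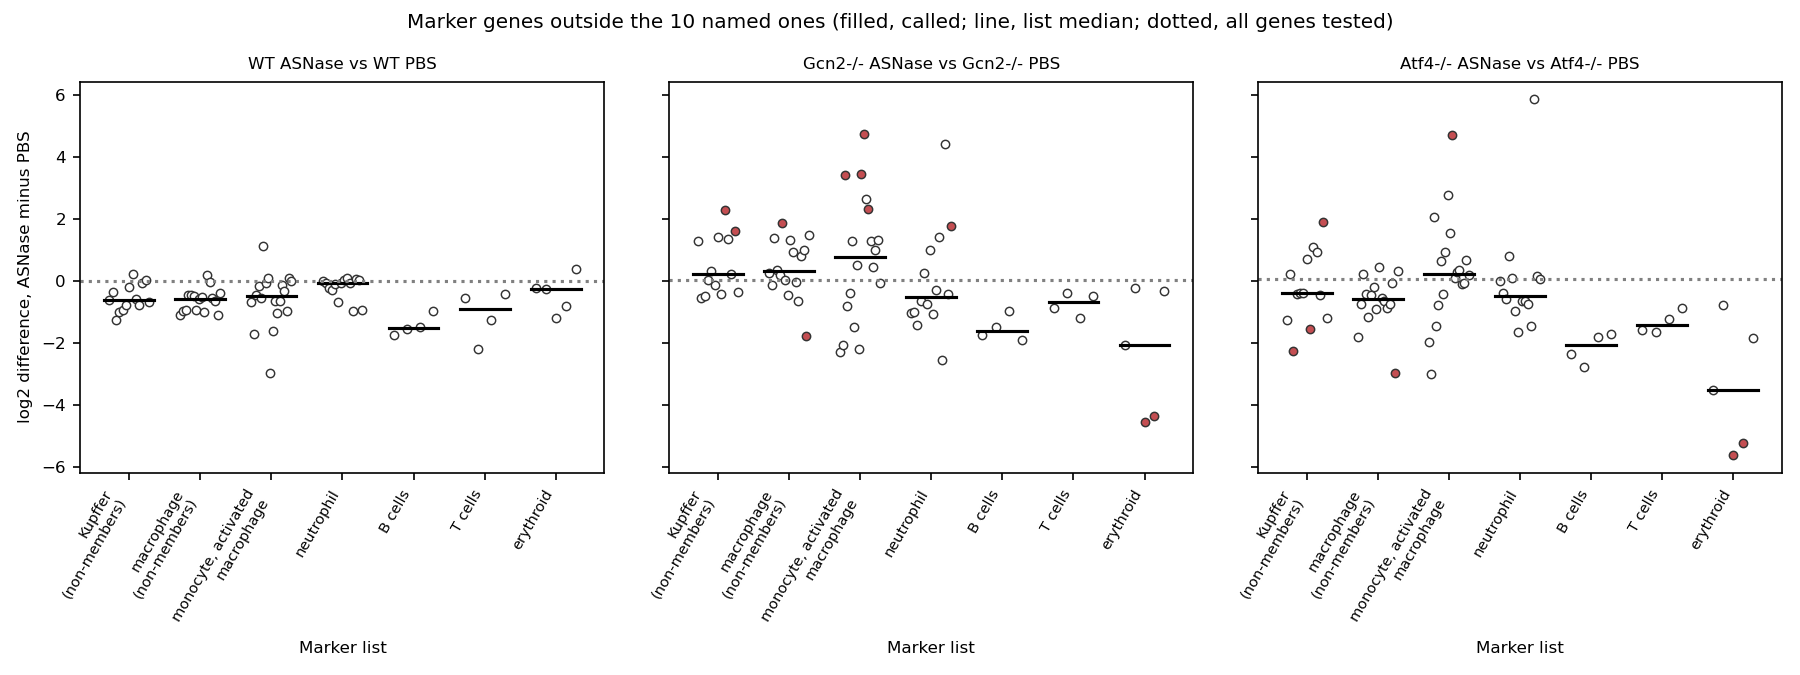
Difference in log2(FPKM + 0.1), ASNase minus PBS (y axis), of each gene in 7 marker lists that leave out the 10 genes above (x axis), in WT, Gcn2-/- and Atf4-/- mice. Filled points were called, bars are list medians and the dotted line is the median of all genes tested. No point is filled in WT, and the 4 filled points of the monocyte and activated macrophage list in Gcn2-/- mice, Itgam, Ccl2, Cd14 and Il1b, lie between 2.32 and 4.72.

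Genes with a like pattern over the 6 groups were sought among 2448 genes that varied by at least 1.5 on the log2 scale. The closest to Clec4f were Crip1, a LIM domain protein (Pearson r = 0.994), Clec7a, the beta-glucan receptor dectin-1 (r = 0.993), and Plekhb1, a membrane protein with a pleckstrin homology domain (r = 0.984). Vsig4 followed Clec4f with r = 0.916, S100a9 with r = 0.887 and S100a8 with r = 0.822. Cd5l stood lower, at r = 0.699, and Lyz2 at r = -0.085. Marco ran against Clec4f with r = -0.847. The closest to S100a8 were Osgin1, an oxidative stress response gene (r = 0.938), S100a9 (r = 0.892) and a U6 snRNA that was listed at 0 in 2 groups (r = 0.883). These coefficients are a description over 6 group values, which share strains and treatments, and have no p.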

How the data were processed

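Liver RNA-Seq data from 18 mice, 3 in each of 6 groups, were analysed. Per the labels and the study's methods, the authors aligned poly-A reads to mm10 with TopHat and used Cuffdiff. The authors deposited 1 FPKM value per gene and group, pooled over 3 libraries, with a lower and an upper bound in FPKM and a status. Counts and values of single libraries were not used here, so depth behind a value is unknown and its interval gives the precision. Each column of values carries the name of a group.

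Groups were compared on log2(FPKM + 0.1) with Python 3.11.15, pandas 2.3.3 and NumPy 2.4.6, over all 37303 genes. Genes were tested if the status was OK and the value above 0 in each of the 2 groups and over 3 FPKM in at least 1 of them, and called past a log2 difference of 1.5 with separate intervals. The FPKM and fold limits follow the study's supplementary methods. No p-value was computed. The rule was tried on simulated data whose changes lay far past the fold limit, without variation between mice. Its error rates near the limit were therefore not tested. The 10 members and the marker lists, 103 further genes in 13 lists, were chosen with earlier results of these data known. From each myeloid list the called genes were named, at most 4 and the highest in mean FPKM first, and other myeloid genes are marked as picked after their values were seen. The alternatives were a pseudocount of 1, no FPKM filter, median-ratio scaling, and 3 other conditions on fold and interval. Promoter sequences are RefSeq's for GRCm38.p6, coordinates are GENCODE M21's, and plots were drawn with matplotlib 3.10.9.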

Additional observations from a re-analysis of the deposited data

Results flagged for a closer look

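The responses to ASNase differed between strains in 5 instances among the 10 genes, by the size of the difference against the intervals of its 4 values. The values of single mice were not used here, and these differences were not tested. The response of Marco was 4.51 higher on the log2 scale in Gcn2-/- than in WT mice and 3.56 higher in Atf4-/- than in WT mice. That of Lyz2 was 2.35 higher in Gcn2-/- than in WT mice. Between Atf4-/- and Gcn2-/- mice the Lyz2 responses differed by -2.68, with 54.1 and 133.8 FPKM in the Gcn2-/- groups and 100.2 and 38.5 FPKM in the Atf4-/- groups, PBS first. The response of S100a9 differed by -4.24 between Gcn2-/- and WT mice, and the lowest of its 4 values, 0.171 FPKM in Gcn2-/- ASNase, has an interval from 0 to 0.518 FPKM. Both differences from WT mice for Marco use the same WT groups.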

How the results depend on the processing

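Of 480 recomputed values for single genes, 473 stayed on their side of the limits and 7 passed them newly, and no called value changed its sign or lost its call. Dropping the FPKM filter, the fold limit or the interval condition can only add calls. Under these settings no call could be lost or change its sign, so only the other settings could have removed one. The sign of 1 uncalled value turned: Csf1r in Atf4-/- PBS against WT PBS went from 0.0008 to -0.02 with median-ratio scaling. With the fold limit and no condition on the intervals, 4 instead of 2 genes were called in Gcn2-/- ASNase against PBS, Clec4f and S100a8 being added at log2 differences of -2.08 each, and Clec4f was called in Atf4-/- mice at -1.76 and in Gcn2-/- ASNase against WT ASNase at -1.72. With median-ratio scaling, 2 instead of 1 response differences passed between Atf4-/- and Gcn2-/- mice, Cd5l being added at -1.53. With separate intervals and no fold limit, Lyz2 was called in Atf4-/- mice at -1.38, and with the combined error in place of separate intervals Clec4f was called there at -1.76. The pseudocount of 1 and the absence of an FPKM filter changed no call. Leaving out each library in turn was not run, because the table holds no values per library. No paired analysis was possible because the columns carry group values without replicate numbers. The intervals, with a median half-width of 51.3% to 54.2% of the value, limit what can be told apart, and smaller differences were not detectable.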

Other observations

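The complement genes C1qa, C1qb and C1qc, whose chains form C1q and which liver macrophages make, were picked after their values were seen, and none was called in any comparison. C1qa stood at 61.9 FPKM under PBS and 31.3 under ASNase in WT mice, 40.6 and 41.9 in Gcn2-/- mice, and 59.9 and 44.5 in Atf4-/- mice. C1qb was lowest in WT ASNase, at 32.4 FPKM, and highest in Atf4-/- PBS, at 69.5 FPKM, and C1qc was lowest in WT ASNase, at 29.6 FPKM, and highest in Atf4-/- PBS, at 52.5 FPKM. Emr1, picked in the same way, which encodes the macrophage antigen F4/80, stood at 9.12 and 5.98 FPKM in WT mice, 5.17 and 12.9 FPKM in Gcn2-/- mice, and 10.9 and 4.56 FPKM in Atf4-/- mice, PBS first, and was not called. Its highest value was thus in Gcn2-/- ASNase, as for Lyz2. Cd163, the receptor for haemoglobin bound to haptoglobin, was picked in the same way and was called higher in Atf4-/- ASNase than in WT ASNase, at 11.4 against 3.68 FPKM.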
